A study of Homo sapiens with 12 samples.

Results

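The genes described here are 10 transcription factors that cells induce early after growth and stress signals: the AP-1 members FOS, FOSB, FOSL1, FOSL2, JUN, JUNB, JUND and ATF3, together with EGR1 and MYC. They were chosen by name, with earlier results of these data known. Their Ensembl identifiers were found in both deposited count tables, which list 36675 genes between them. All 10 also passed the low-count filter of every main test below. RNA was sequenced from A375 and CHL1, both melanoma cell lines, and from 1 palbociclib-resistant derivative of each, labelled A375AR991 and CHL1AR991. Palbociclib inhibits the cell cycle kinases CDK4 and CDK6. The resistant A375 cells had been kept in rising palbociclib for 7 months and the resistant CHL1 cells for 3 months, after which 4 µM palbociclib was maintained, while the parental cells received no palbociclib. The drug was withdrawn from the resistant cells for 72 h before RNA extraction. Resistant A375, parental A375, resistant CHL1 and parental CHL1 cells gave 3 libraries each, of 25398920 to 29812686 counted reads. Nothing in the labels says that the 3 libraries of a group are separate cultures. Each p-value below therefore reflects only how far these libraries differ, and that difference may be technical.

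AP-1 is a dimer of basic leucine zipper proteins. FOS proteins must pair with a JUN partner to bind DNA, JUN proteins can also pair among themselves, and ATF3 pairs with JUN proteins. Most of these genes belong to the immediate-early class: the ERK pathway switches on FOS and EGR1 within minutes through the serum response factor and its partners, and the transcripts are short-lived. FOSL1 (FRA1) accumulates when ERK signalling is sustained, which is usual in melanoma with an active BRAF, and EGR1 and MYC are themselves outputs of the same pathway.

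The start regions of 4 of these genes are shown because the results below turn on them: EGR1 and FOS varied most between CHL1 libraries, apart from FOSB with its few reads, and FOSL2 and JUNB passed the test in both lines. Each window runs from 250 bases before to 50 bases after the RefSeq start site and is read 5′ to 3′ on the plus strand of GRCh38.p14. EGR1 lies at chr5:138465229-138465528, FOS at chr14:75278578-75278877, FOSL2 at chr2:28392608-28392907 and JUNB at chr19:12791236-12791535. Capitals mark matches, on either strand, to the AP-1 site TGANTCA, the core of the cyclic AMP response element (CRE) TGACGT, the CArG box of the serum response element, the EGR site GCGNGGGCG, the E-box CACGTG and the TATA box TATAAA.
EGR1: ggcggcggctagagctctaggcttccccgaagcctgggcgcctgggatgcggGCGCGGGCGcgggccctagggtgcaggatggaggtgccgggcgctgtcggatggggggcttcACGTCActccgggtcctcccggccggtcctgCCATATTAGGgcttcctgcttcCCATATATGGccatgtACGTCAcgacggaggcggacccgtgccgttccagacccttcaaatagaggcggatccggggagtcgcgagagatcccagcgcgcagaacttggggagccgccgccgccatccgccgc
FOS: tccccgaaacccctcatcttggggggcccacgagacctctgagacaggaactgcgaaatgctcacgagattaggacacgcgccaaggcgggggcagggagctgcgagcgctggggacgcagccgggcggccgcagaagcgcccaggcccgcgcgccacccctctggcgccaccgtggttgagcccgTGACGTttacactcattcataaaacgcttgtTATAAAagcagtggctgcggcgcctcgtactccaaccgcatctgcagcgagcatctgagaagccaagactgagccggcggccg
FOSL2: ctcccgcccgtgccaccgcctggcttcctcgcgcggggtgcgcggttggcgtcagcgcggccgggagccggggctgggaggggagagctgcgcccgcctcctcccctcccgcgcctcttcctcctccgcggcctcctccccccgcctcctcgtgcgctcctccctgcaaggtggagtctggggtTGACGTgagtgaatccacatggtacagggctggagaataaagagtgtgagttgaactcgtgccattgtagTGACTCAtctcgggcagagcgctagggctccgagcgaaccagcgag
JUNB: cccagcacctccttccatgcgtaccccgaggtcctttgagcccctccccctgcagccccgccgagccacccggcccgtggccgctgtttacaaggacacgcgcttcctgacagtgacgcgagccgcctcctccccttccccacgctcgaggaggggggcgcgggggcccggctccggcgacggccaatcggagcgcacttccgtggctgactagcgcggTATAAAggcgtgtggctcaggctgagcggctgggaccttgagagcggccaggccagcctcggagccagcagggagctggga

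The EGR1 window holds CArG boxes at positions -105 and -83, CRE cores at -136 and -67, both read on the minus strand, and an EGR site at -198. The FOS window holds a CRE core at -64 and a TATA box at -33. In FOSL2 an AP-1 site starts 5 bases into the transcript and a CRE core lies at -66, and the JUNB window holds a TATA box at -31. Among all 35116 RefSeq promoter windows of this length, 1.29% hold a CArG box, 7.98% a CRE core, 9.43% an EGR site, 7.71% an AP-1 site and 11.5% a TATA box. No E-box was matched in the 4 windows, against 7.26% of all windows. These matches describe letters and are not evidence of binding.

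Markers were checked before the factors were compared. SOX10, a neural crest and melanocyte factor, stood between 201 and 1167 normalised CPM (reads of a gene scaled by library size and TMM factors over the 12 libraries), and MITF, the melanocyte regulator, between 25 and 52. The pigment genes MLANA and PMEL did not exceed 1.33 CPM in any library, and TYR, the tyrosinase gene, is not listed in the A375 table, which holds no gene without reads. The summed level of the 10 melanocyte lineage markers ran from 275 to 420 CPM in resistant A375 libraries and from 440 to 593 in parental A375 libraries, against 1236 to 1448 in resistant CHL1 and 1217 to 1451 in parental CHL1 libraries. The 5 leukocyte markers summed to 2.78 to 3.48 CPM in resistant and 5.76 to 7.67 in parental A375 libraries, and to 9.26 to 10.5 and 9.86 to 10.7 in resistant and parental CHL1 libraries; CD3E, which defines T cells, had no read in resistant A375 libraries and is not listed for CHL1. The summed fibroblast markers were 28.4 to 36.1 CPM in resistant and 18.5 to 24.1 in parental A375 libraries, and 11.6 to 14.0 in resistant and 17.0 to 23.0 in parental CHL1 libraries. Keratinocyte markers summed to 64.4 to 69.8 CPM in resistant and 76.6 to 93.7 in parental A375 libraries, and to 10.9 to 13.6 and 11.9 to 13.2 in resistant and parental CHL1 libraries. Endothelial markers summed to 9.15 to 14.8 and 5.61 to 13.4 CPM in resistant and parental A375 libraries, and to no more than 1.82 and 2.64 CPM in resistant and parental CHL1 libraries. The part of such shifts in the results below was not tested, and in these bulk samples fewer cells with a transcript and less of it per cell cannot be told apart.

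The 2 lines carried different AP-1 transcripts. Per kilobase of exon, FOSL1 led in A375, with 220, 250 and 239 CPM per kb in resistant and 207, 275 and 287 in parental libraries. The next gene in that line, JUND, reached no more than 37.2 CPM per kb in resistant and 42.2 in parental A375 libraries, so no other factor overlapped FOSL1. In A375 the order then ran through JUNB, JUN and FOSL2 to EGR1 and MYC, which changed places between resistant and parental cells, with ATF3, FOSB and FOS at the bottom of both groups. FOS, the founding member of the family, stood at 1.22, 1.18 and 1.59 CPM per kb in resistant and 1.01, 1.18 and 0.838 in parental A375 libraries. Neighbours in that order did not all separate: JUN overlapped FOSL2, and ATF3 overlapped FOSB, in both A375 groups.

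In CHL1, MYC had the highest mean, 37.1 ± 8.63 CPM per kb in resistant and 44.0 ± 12.6 in parental libraries (SD, n = 3), but its libraries overlapped those of the next gene in each group. FOSL1 followed in resistant CHL1 cells with 29.4 ± 2.08 CPM per kb and came after EGR1 in parental cells with 25.6 ± 3.06. EGR1 spread widely, at 26.3 ± 27.0 CPM per kb in resistant and 33.5 ± 26.4 in parental cells. FOS, at 19.1 ± 8.21 and 21.0 ± 9.82, lay by its mean above JUNB in resistant and below JUNB in parental cells. FOSB, at 0.0673 ± 0.0441 CPM per kb in resistant and 0.0917 ± 0.0268 in parental CHL1 cells, was the lowest of the 10 in this line, from 5 to 19 reads per library.

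**Figure D1:**
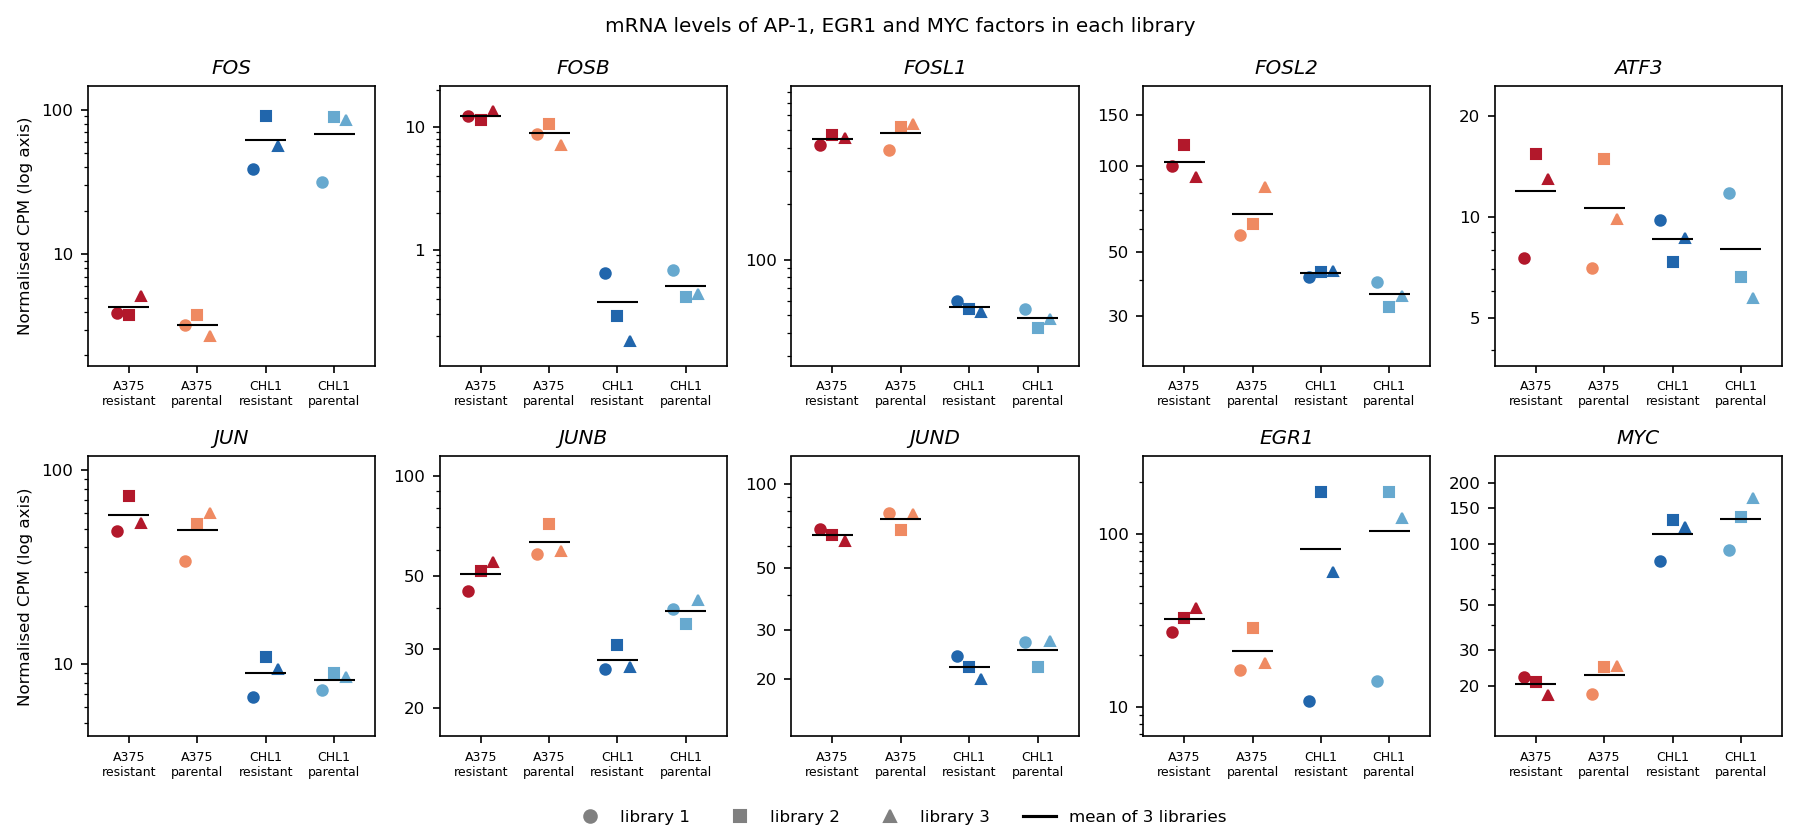
Normalised CPM of each gene in every library on a log axis, with resistant left of parental cells and A375 left of CHL1. Symbols give the library number and bars the mean of 3 libraries. FOS and MYC lie higher in CHL1, FOSB, FOSL1, JUN and JUND lie higher in A375, and the CHL1 values of EGR1 run from 10.9 to 176 CPM.

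Written as shares of the summed FOS family, FOSL1 made up 92.9% ± 0.448 in resistant and 95.5% ± 0.370 in parental A375 cells (SD, n = 3). FOSL2 held 5.67% ± 0.600 in resistant and 3.55% ± 0.438 in parental A375 cells, and these libraries did not overlap. FOS held 0.524% ± 0.0913 and 0.385% ± 0.0953 in resistant and parental A375 cells. In CHL1 the family was divided between FOSL1, with 54.8% ± 9.16 in resistant and 50.5% ± 12.8 in parental cells, and FOS, with 34.2% ± 10.3 and 39.5% ± 15.2. The summed FOS family stood at 254 ± 16.5 and 268 ± 44.5 CPM per kb in resistant and parental A375 cells, against 54.4 ± 7.30 and 51.7 ± 6.66 in resistant and parental CHL1 cells.

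The JUN family was spread more evenly. By its mean, JUND led in A375 with 44.5% ± 4.05 of the family in resistant and 45.4% ± 5.06 in parental cells. In parental A375 library 2, however, JUNB held 43.3% and JUND 40.3%. JUNB led in CHL1 with 51.6% ± 2.12 in resistant and 57.5% ± 0.528 in parental cells. JUN itself held 20.7% ± 3.41 and 15.5% ± 3.62 in resistant and parental A375 cells, and 8.61% ± 1.77 and 6.30% ± 1.07 in resistant and parental CHL1 cells. The summed JUN family did not overlap between the CHL1 groups, at 29.3, 31.9 and 27.9 CPM per kb in resistant against 38.5, 34.1 and 40.2 in parental libraries.

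**Figure D2:**
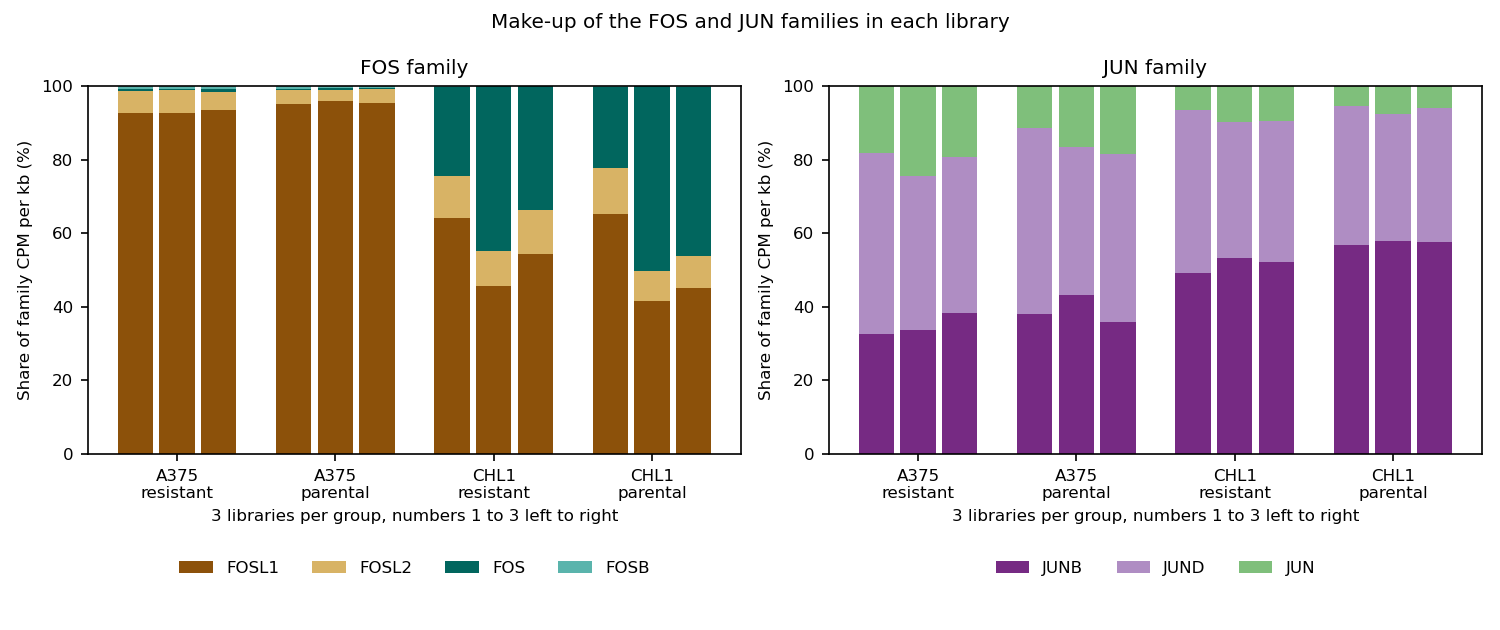
Share of the summed CPM per kb of the FOS family (left) and the JUN family (right) held by each gene, 1 bar per library, in the order resistant A375, parental A375, resistant CHL1 and parental CHL1. FOSL1 fills 92.7% to 95.9% of every A375 bar, whereas FOS takes 22.1% to 50.2% of the CHL1 bars.

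The first comparison asked how these factors differed between palbociclib-resistant and parental A375 cells. FOSL2, EGR1 and FOSB were higher in resistant cells and JUNB was lower. These 4 calls among 10 genes stand beside 28.3% of all 18086 genes called in the same test, 13.4% higher and 14.8% lower. The groups did not overlap for 4 of the 10 genes, FOS, FOSB, FOSL2 and JUNB, against 42.8% of all genes tested. The median log2 fold change was 0.22 over the 10 genes and -0.001 over all genes.

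FOSL2 (ENSG00000075426), also called FRA2, a FOS protein without the transactivation domain of FOS, had 99.98, 118 and 91.2 CPM in resistant and 57.3, 62.8 and 83.9 CPM in parental A375 libraries. Every resistant library lay above every parental one. The log2 fold change was 0.60 ± 0.14 (1.52-fold; edgeR quasi-likelihood, adjusted p = 0.0137), and the call held in all 6 fits that left out 1 library, with adjusted p from 0.00150 to 0.0413. Its 20 nearest tested genes on chromosome 2 had a median of 0.11. Reads of a gene antisense to FOSL2 cannot be told apart from its own here, since the library kit does not mark the strand.

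EGR1 (ENSG00000120738), a zinc finger factor induced by growth signals, had 27.3, 32.9 and 37.3 CPM in resistant and 16.4, 28.9 and 18.1 CPM in parental A375 libraries. Parental library 2 lay above resistant library 1, so the groups overlapped. EGR1 rose by 0.62 ± 0.20 on the log2 scale (1.54-fold, adjusted p = 0.0497), and the 20 nearest genes on chromosome 5 had a median of 0.05. This call held without parental library 2 (adjusted p = 0.00208) and was lost without parental library 1 or 3 or without any 1 of the resistant libraries, with adjusted p from 0.0519 to 0.161. In a fit over all 12 libraries, which shares 1 estimate of the spread with CHL1, the adjusted p was 0.612, and with a 1 CPM filter it was 0.0521.

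FOSB (ENSG00000125740), an activating FOS protein, had 12.3, 11.3 and 13.4 CPM in resistant and 8.74, 10.6 and 7.15 CPM in parental A375 libraries, without overlap. It rose by 0.48 ± 0.15 (adjusted p = 0.0373). The call was lost without parental library 1 or 3 or resistant library 1 or 3, with adjusted p from 0.0855 to 0.127. FOSB lies on chromosome 19 among genes that were mostly higher as well: 19 of its 20 nearest tested genes had a positive log2 fold change, with a median of 0.32. ERCC1, a DNA repair gene that overlaps FOSB on the opposite strand, had 112, 111 and 115 CPM in resistant and 99.2, 103 and 96 CPM in parental A375 libraries.

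JUNB (ENSG00000171223), a JUN protein that can restrain JUN, had 45.0, 51.6 and 55.2 CPM in resistant and 58.0, 71.6 and 59.6 CPM in parental A375 libraries. All 3 resistant libraries lay below all 3 parental ones. JUNB fell by 0.32 ± 0.10 on the log2 scale (adjusted p = 0.0459). Its 20 nearest tested genes on chromosome 19 all had negative values, with a median of -0.38, beside the -0.32 of JUNB. The call was lost without parental library 2 or 3 or resistant library 1 or 2, with adjusted p from 0.0553 to 0.149, and with library totals in place of TMM factors (adjusted p = 0.0568). HOOK2, which overlaps JUNB on the opposite strand, had 6.38, 5.49 and 6.75 CPM in resistant and 10.8, 7.34 and 8.98 CPM in parental A375 libraries.

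The other 6 factors did not pass in A375. FOS had 3.95, 3.83 and 5.13 CPM in resistant and 3.27, 3.82 and 2.71 CPM in parental libraries, which did not overlap (0.40 ± 0.18, adjusted p = 0.141). FOSL1, the most abundant of the 10, had 414, 472 and 451 CPM in resistant and 391, 519 and 541 CPM in parental libraries, which overlapped (-0.12 ± 0.11, adjusted p = 0.498). JUN, the founding JUN protein, stood at 0.26 ± 0.21 and the stress-induced ATF3 at 0.18 ± 0.30. JUND, the JUN protein that is least dependent on induction, stood at -0.18 ± 0.07 (adjusted p = 0.0864), and its 20 neighbours on chromosome 19 had a median of -0.35. MYC, which drives growth and ribosome production, had 22.2, 20.8 and 18.1 CPM in resistant and 18.2, 24.9 and 25.04 CPM in parental A375 libraries (-0.16 ± 0.13, adjusted p = 0.429). The calls of FOSL1 and JUND appeared in 1 of the 6 fits without a library, for FOSL1 without parental library 1 (-0.25, adjusted p = 0.0269) and for JUND without parental library 2 (-0.25, adjusted p = 0.0226).

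The same comparison was made in CHL1. In the main fit, which leaves out the library number, JUNB was lower and FOSL2 higher in resistant CHL1 cells, and the other 8 factors did not pass. These 2 calls stand beside 21.2% of all 17219 genes tested, 9.11% higher and 12.1% lower. The groups did not overlap for FOSL2 and JUNB alone among the 10, against 36.7% of all genes. The median log2 fold change was -0.18 over the 10 genes and 0 over all genes.

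JUNB had 26.3, 31.0 and 26.5 CPM in resistant and 39.8, 35.9 and 42.2 CPM in parental CHL1 libraries. The highest resistant library lay below the lowest parental one. JUNB fell by 0.50 ± 0.08 on the log2 scale (adjusted p = 0.000868), and the call held in all 6 fits without 1 library, with adjusted p from 0.000461 to 0.00749. A difference of this size or larger was seen in 9.21% of the genes tested. Its 20 nearest genes had a median of 0.05, with 16 positive, and HOOK2 had 14.2, 16.6 and 15.8 CPM in resistant and 13.7, 16.1 and 15.7 CPM in parental CHL1 libraries.

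FOSL2 had 40.9, 42.7 and 43.0 CPM in resistant and 39.5, 32.2 and 35.3 CPM in parental CHL1 libraries. The groups were close but did not overlap. It rose by 0.24 ± 0.07 (1.18-fold, adjusted p = 0.0305), and its neighbours had a median of 0.01. The call was lost without parental library 2 or 3 or resistant library 2 or 3, with adjusted p from 0.0649 to 0.125, and in the fit over all 12 libraries (adjusted p = 0.261).

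Among the factors that did not pass in CHL1, FOSL1 had 59.9, 54.2 and 52.3 CPM in resistant and 54.2, 42.7 and 48.0 CPM in parental libraries (0.20 ± 0.08, adjusted p = 0.110). It passed without parental library 1 (0.29, adjusted p = 0.0242). JUND stood at -0.21 ± 0.09 (adjusted p = 0.143) and passed without parental library 2 (-0.30, adjusted p = 0.0491). JUN was at 0.13 ± 0.15 and ATF3 at 0.08 ± 0.22, with ATF3 at 9.78, 7.35 and 8.68 CPM in resistant and 11.8, 6.64 and 5.75 in parental libraries. ATF3 passed without parental library 1 (0.47, adjusted p = 0.0422), the highest library of its group. FOSB rested on 16, 8 and 5 reads in resistant and 19, 11 and 11 reads in parental CHL1 libraries, and its -0.49 ± 0.42 was not distinguishable at this depth. MYC, FOS and EGR1 stood at -0.25 ± 0.19, -0.14 ± 0.33 and -0.35 ± 0.78. With the library number as a block in the fit, FOSL1, MYC and EGR1 passed. Without the low-count filter FOSL1 (adjusted p = 0.0214), MYC (adjusted p = 6.21e-05) and EGR1 (adjusted p = 1.80e-08) passed. In that edgeR fit no gene kept its own estimate of the spread. The estimate used for EGR1 was 0.626, against 122.5 with the filter.

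**Figure D3:**
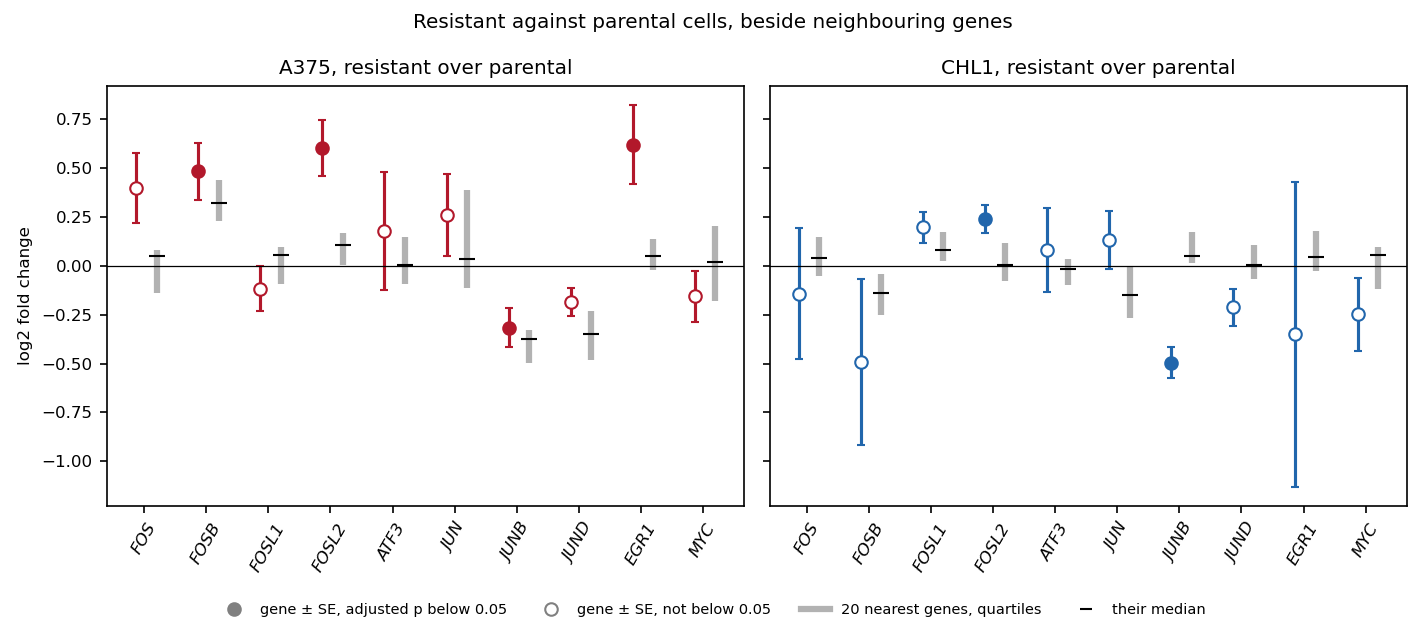
Log2 fold change of resistant over parental cells (± SE) in A375 (left) and CHL1 (right), filled where the adjusted p is below 0.05, beside the quartiles and median of the 20 nearest tested protein-coding genes. In A375 FOSL2 (0.60) and EGR1 (0.62) lie above their neighbours, whereas JUNB and JUND lie at or above neighbours that are lower. In CHL1 JUNB (-0.50) lies below neighbours with a median of 0.05.

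The large error of EGR1 in CHL1 came from the spread within each group. EGR1 had 10.9, 176 and 60.8 CPM in resistant and 14.1, 176 and 125 CPM in parental CHL1 libraries. Library 1 was lowest and library 2 highest in both groups, and the highest exceeded the lowest 16.2-fold in resistant and 12.5-fold in parental cells. FOS followed the same order, with 38.7, 90.9 and 55.7 CPM in resistant and 31.5, 88.6 and 84.3 CPM in parental libraries, a span of 2.35-fold and 2.81-fold.

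MYC was also lowest in library 1 of each CHL1 group, at 82.1, 131 and 121 CPM in resistant and 92.9, 136 and 168 CPM in parental libraries. Among the 17219 genes tested in CHL1, library 1 was the lowest of both groups for 15.7%. A spread of at least 2-fold in both groups was rare: 10 of 11360 genes with at least 5 CPM in both CHL1 groups had it (0.088%), limits that were chosen after the values were seen. With library 1 lowest in both groups, EGR1 and FOS were the only 2 of them. The other 8 were identifiers without a gene symbol, lowest in library 1 of the parental group and in library 2 or 3 of the resistant group.

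An edgeR quasi-likelihood test of the library number, with resistance in the model, was added after this pattern was seen. It called 73 of 17219 genes in CHL1 (0.424%), with EGR1 ranked 1 by its p (adjusted p = 3.45e-06) and MYC and FOS also among them (adjusted p = 0.00209 each). Their libraries had been seen to differ by number before the test, which is therefore a description. The other 7 factors did not pass it. Of the 20 other immediate-early genes tested in CHL1, 0 spanned 2-fold or more in both groups, and 2 passed the number test. IER3, a survival gene, was lowest in library 1 of both groups and spanned 1.63-fold in resistant and 1.39-fold in parental cells (adjusted p = 0.0495). KLF10 was highest in library 1 of both groups and spanned 1.39-fold and 2.06-fold (adjusted p = 0.0137). CCN2, a matrix protein gene, spanned 1.25-fold in resistant and 2.47-fold in parental libraries and did not pass (adjusted p = 0.195). Without resistant library 1 the CHL1 difference of EGR1 was 0.16, and without resistant library 2 it was -1.54. Leaving out a single library of 1 group could therefore turn its direction. With 1 library number left out of both groups it ran from -0.93 to -0.03, kept its direction and did not pass. The labels do not say what the library number stands for.

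**Figure D4:**
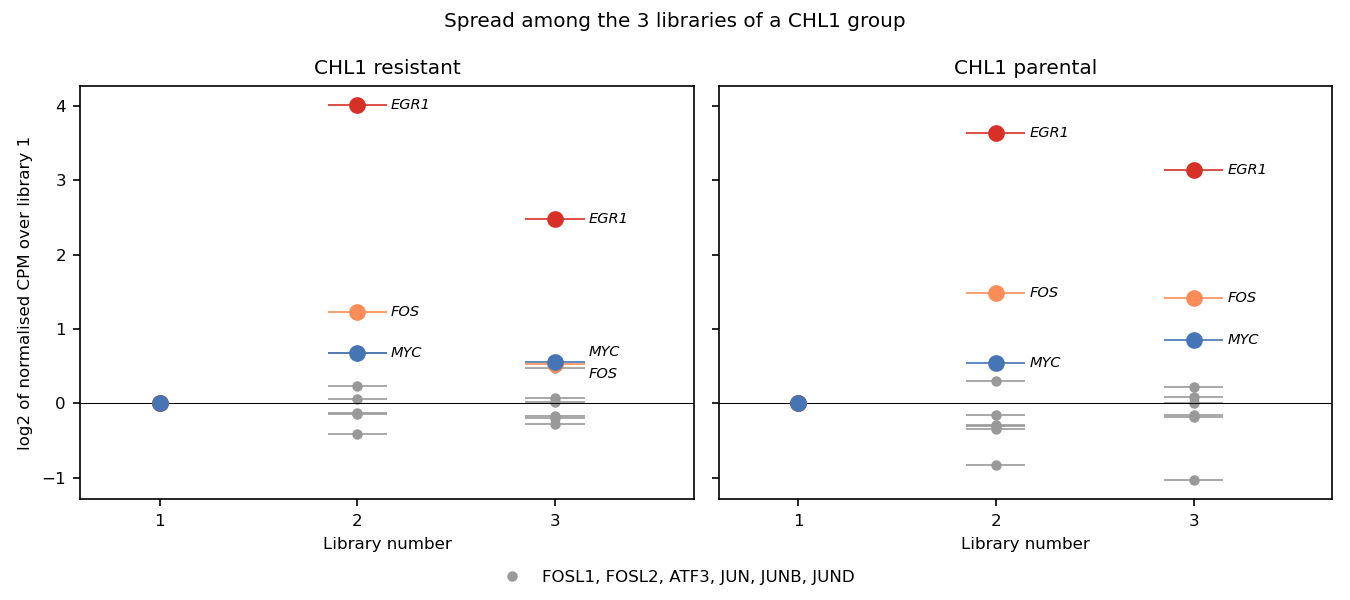
Level of each factor in libraries 1 to 3 of resistant CHL1 (left) and parental CHL1 (right), as log2 of normalised CPM over library 1 of the same group, without FOSB, which has too few reads. EGR1, FOS and MYC are coloured and lie above 0 in libraries 2 and 3 of both groups. The grey points are the other 6 factors, of which JUN also lies above 0 in libraries 2 and 3 of both groups.

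In A375 the same genes were steadier. EGR1 spanned 1.37-fold in resistant and 1.76-fold in parental libraries, and FOS 1.34-fold and 1.41-fold. ATF3 was the exception, with 7.56, 15.4 and 13.03 CPM in resistant and 7.07, 14.95 and 9.86 CPM in parental A375 libraries. It was lowest in library 1 and highest in library 2 of both groups, a span of 2.04-fold and 2.12-fold. It was the only 1 of the 10 to pass the number test in A375 (adjusted p = 0.0223), which called 1.18% of all genes there. Of 11165 genes with at least 5 CPM in both A375 groups, 25 (0.224%) spanned at least 2-fold in both.

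A fit over all 12 libraries asked whether the effect of resistance differed between the lines. None of the 10 factors passed, against 23.6% of 19241 genes tested in the same edgeR quasi-likelihood fit. None had an unadjusted p below 0.05, against 34.3% of all genes, and DESeq2 called none either. FOSB stood at 0.97 ± 0.46 for the effect in A375 minus that in CHL1 (unadjusted p = 0.0549, adjusted p = 0.155), FOSL1 at -0.32 ± 0.16 (adjusted p = 0.168) and FOSL2 at 0.36 ± 0.18 (adjusted p = 0.171). Each of these passed in 1 of the 12 fits without a library: FOSB without resistant CHL1 library 1 (1.59, adjusted p = 0.0275), FOSL1 without parental A375 library 1 (-0.45, adjusted p = 0.0122) and FOSL2 without parental A375 library 3 (0.54, adjusted p = 0.0126). EGR1 stood at 0.96 ± 1.09. That a factor passed in 1 line only is therefore not a tested difference between the lines.

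Line against line, the factors differed far more than between resistant and parental cells, as did all genes tested. For resistant against parental cells, the median absolute log2 fold change over the 10 genes was 0.287 in A375 and 0.225 in CHL1. Over all genes it was 0.203 and 0.14. Between parental A375 and parental CHL1 cells, 9 of 10 passed, 6 of them higher in A375, beside 75.6% of all genes called, 38.2% higher and 37.4% lower. Their libraries did not overlap for 8 of 10 genes, against 77.2% of all genes, so the number of differences is near the background. Their size was larger: the median absolute log2 fold change was 2.42 over the 10 genes and 0.71 over all genes. The 10 genes were chosen with earlier results of these data known, so this contrast is a description. Between resistant A375 and resistant CHL1 cells 8 of 10 passed, 6 higher in A375, beside 76.6% of all genes, 38% higher and 38.6% lower. There too 8 of 10 did not overlap, against 79.2% of all genes, with a median absolute log2 fold change of 2.02 beside 0.74. A375 and CHL1 are 1 line each, so these values describe these lines.

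FOS had the largest difference towards CHL1 and was 20.8-fold lower in parental A375 than in parental CHL1 cells (-4.38 ± 0.41, adjusted p = 1.37e-07) and 14.4-fold lower in resistant A375 than in resistant CHL1 cells (-3.85 ± 0.39). The highest A375 library had 5.13 CPM and the lowest CHL1 library 31.5 CPM. MYC was 5.81-fold lower in parental A375 cells (-2.54 ± 0.21, adjusted p = 3.01e-08) and 5.47-fold lower in resistant A375 cells (-2.45 ± 0.21), and its A375 and CHL1 libraries did not overlap.

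FOSB stood 4.09 ± 0.26 higher on the log2 scale in parental A375 than in parental CHL1 cells, and 5.06 ± 0.27 higher between the resistant lines. FOSL1 was 10.01-fold higher in parental A375 (3.32 ± 0.12, adjusted p = 1.75e-12) and 8.04-fold higher in resistant A375 cells (3.01 ± 0.12). JUN differed by 2.56 ± 0.22 and 2.69 ± 0.22 between the parental and the resistant lines, JUND by 1.56 ± 0.09 and 1.58 ± 0.09, FOSL2 by 0.93 ± 0.13 and 1.29 ± 0.13, and JUNB by 0.68 ± 0.10 and 0.86 ± 0.10, all higher in A375. These 8 genes kept their calls in each of the 12 fits without 1 library in both comparisons. Medians of the 20 nearest genes between the parental lines were 0.82 for FOSB, 0.67 for JUND, 0.55 for JUNB and 0.26 for FOSL1. They were -0.72 for FOS and -0.61 for MYC. Each of these medians had the sign of the gene itself, whereas those for JUN (-0.37) and FOSL2 (-0.25) had the opposite sign.

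EGR1 was lower in parental A375 than in parental CHL1 cells (-2.31 ± 0.80, adjusted p = 0.0168), although parental CHL1 library 1, at 14.1 CPM, lay below all 3 parental A375 libraries. The call was lost without parental A375 library 1 (adjusted p = 0.0506) or parental CHL1 library 2 (adjusted p = 0.0854). Between the resistant lines EGR1 did not pass (-1.35 ± 0.77, adjusted p = 0.123), except without resistant CHL1 library 1 (-1.87, adjusted p = 0.0196). ATF3 passed in neither comparison (0.39 ± 0.31 and 0.48 ± 0.30). It passed without parental CHL1 library 1 in the first (0.78, adjusted p = 0.0372) and without resistant A375 library 1 in the second (0.73, adjusted p = 0.0345). Without number 1 of every group ATF3 passed in both (0.998, adjusted p = 0.000902, and 0.827, adjusted p = 0.00227). EGR1 then passed between the resistant lines (-1.757, adjusted p = 0.0021). The EGR1 call between the parental lines was lost without number 2 (adjusted p = 0.0534) or number 3 (adjusted p = 0.123).

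**Figure D5:**
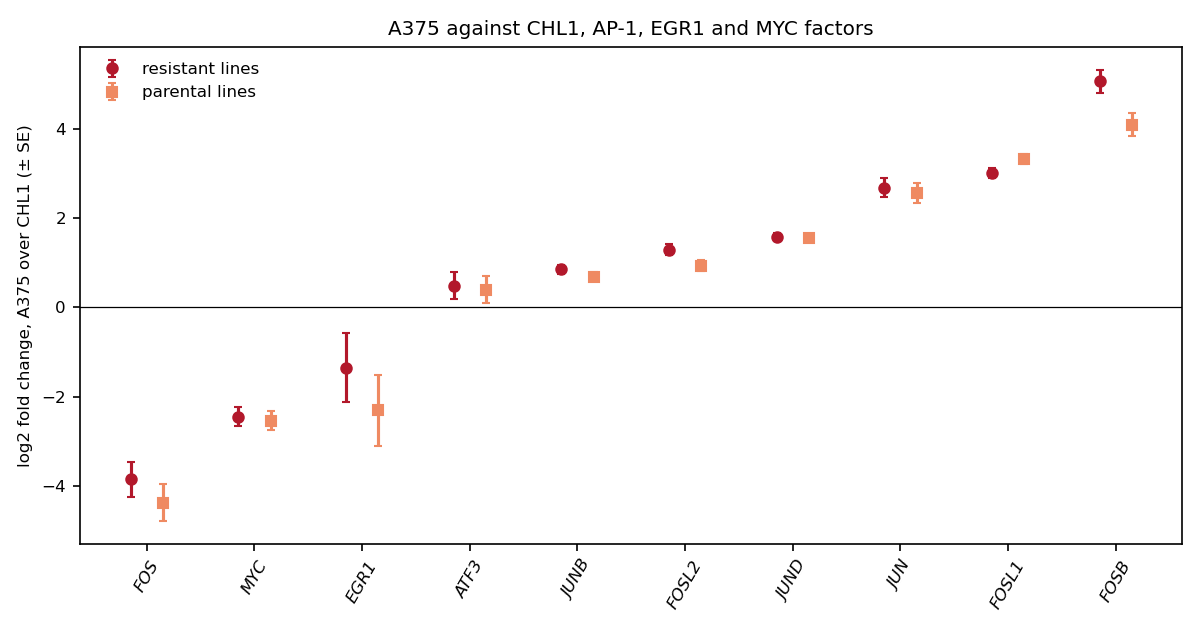
Log2 fold change of A375 over CHL1 (± SE) for each factor, between the resistant lines (circles) and between the parental lines (squares), ordered by the parental values. FOS and MYC lie below -2 in both comparisons, and JUN, FOSL1 and FOSB lie above 2 in both.

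Genes with the most similar pattern over the 12 libraries were sought by the root mean square difference of centred log2 values among 11578 candidates. The closest to FOSL1 were TRHDE (0.12), LINC02882 (0.15) and HOXC8 (0.15), beside a median of 1.62 over all candidates. For FOS they were FAM43A (0.36), TCIM (0.40) and XKR8 (0.41), beside 1.87, and for FOSB IER5L (0.19), ZNF826P (0.20) and RYR2 (0.20), beside 1.56. FOSL2 was closest to VPS9D1-AS1 (0.14), UBE2SP1 (0.16) and UBE2S (0.16), JUN to FHL2 (0.21), ZNF814 (0.23) and SYNJ2 (0.23), and MYC to TMEM184B (0.22), STK25 (0.25) and MYB (0.25). JUNB was closest to ULBP2 (0.13), MRPS25 (0.13) and EDEM1 (0.14), and JUND to KDSR (0.11), BTF3 (0.11) and HEXIM1 (0.12). EGR1 had no close match: TGIF1 (1.02), DNAJB4 (1.05) and KRCC1 (1.06) stood against a median of 1.33. ATF3 varied too little between groups for this search. The 12 libraries share 2 lines, so these likenesses mainly follow the difference between lines.

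Calls in the other gene lists can be read against all genes of the same tests, of which 13.4% were higher and 14.8% lower in A375, and 9.11% higher and 12.1% lower in CHL1. Upstream of the factors, 24 kinases and serum response factors were listed. In A375 1 rose and 4 fell: RPS6KA3, a ribosomal S6 kinase below ERK, rose by 0.54 ± 0.10, RPS6KA2, another of these kinases, fell by 1.91 ± 0.19, and MAP2K2, the ERK kinase MEK2, fell by 0.85 ± 0.06. In CHL1 2 rose and 2 fell, among them RPS6KA2 (0.49 ± 0.06) and MAP2K1, which encodes MEK1 (0.17 ± 0.05), and GSK3B, a kinase that marks MYC for degradation (-0.44 ± 0.05), and RPS6KA1 (-0.31 ± 0.05). RPS6KA2 stood at 1.42 ± 0.321 CPM in resistant and 5.33 ± 0.445 in parental A375 cells, against 46.6 ± 3.67 in resistant and 33.1 ± 0.305 in parental CHL1 cells (SD, n = 3). The medians of the list were -0.04 in A375 and 0.01 in CHL1.

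Other AP-1 and small MAF factors, 15 genes of which 14 were tested in A375 and 12 in CHL1, mostly did not pass. In A375 3 fell, BATF2 (-1.22 ± 0.17) and BATF3 (-0.92 ± 0.22) by the most. In CHL1 BATF3 alone passed (-0.58 ± 0.15). Both BATF genes encode small leucine zipper partners of JUN, at 1.31 and 1.03 CPM on average in resistant A375 cells.

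Of 22 other immediate-early genes 21 were tested in A375, where 2 rose and 3 fell, and 20 in CHL1, where 1 rose and 5 fell. BTG2, a p53-regulated antiproliferative gene, rose by 0.70 ± 0.15 and KLF10 by 0.42 ± 0.07 in A375, and the Krüppel-like factors KLF4 (-0.73 ± 0.13) and KLF2 (-0.64 ± 0.14) fell. In CHL1 NR4A2 rose by 0.43 ± 0.13, and NR4A3 (-0.76 ± 0.13) and ZFP36 (-0.71 ± 0.09), which destabilises short-lived mRNAs, fell. Median log2 fold changes of this list were 0.07 in A375 and -0.12 in CHL1.

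Downstream, 20 AP-1 target genes were listed, of which 19 were tested in A375 and 14 in CHL1. In A375 5 rose and 3 fell. The matrix metalloproteinase gene MMP9 had 327, 514 and 653 reads in resistant and 4, 12 and 5 reads in parental A375 libraries, a log2 fold change of 6.00 ± 0.41 (adjusted p = 2.61e-05). MMP1, a collagenase, rose by 3.02 ± 0.36, and the growth factor HBEGF (-0.63 ± 0.19) and the cytokine IL11 (-0.54 ± 0.15) fell. In CHL1 5 rose and 2 fell, led by the gelatinase MMP2 (1.19 ± 0.08) and the matrix protein TNC (0.68 ± 0.21), with HBEGF (-0.72 ± 0.09) and PHLDA1 (-0.25 ± 0.06) falling. MMP9 and MMP1 had no more than 3 reads in any CHL1 library. List medians were 0.13 in A375 and 0.13 in CHL1. Between the parental lines 16 of 18 tested AP-1 targets were higher in A375 and 2 lower, against 38.2% and 37.4% of all genes, and the same counts were found between the resistant lines.

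EGR1 targets and corepressors numbered 11, of which 10 were tested in A375 and 9 in CHL1. In A375 NAB2, a corepressor that EGR1 induces, rose by 0.30 ± 0.10 (adjusted p = 0.0497), and 5 fell, PDGFB, a growth factor gene (-1.67 ± 0.33), and F3, the tissue factor gene (-1.08 ± 0.19), by the most. In CHL1 none rose and 3 fell, F3 by 1.13 ± 0.13 and PDGFB by 1.00 ± 0.19. In CHL1 NAB2 was highest in library 1 of each group, where EGR1 was lowest, with 90.1, 61.8 and 65.8 CPM in resistant and 93.4, 62.9 and 69.1 in parental libraries.

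MYC partners numbered 17, of which 16 were tested in A375 and 17 in CHL1. In A375 2 rose, the MAX-binding repressor gene MXD1 (0.47 ± 0.10) and ZBTB17, which encodes MIZ1 (0.32 ± 0.08), and 4 fell, including MYCBP2 (-0.48 ± 0.12) and MXI1, another MAX-binding repressor (-0.39 ± 0.11). In CHL1 MYCN (0.58 ± 0.16) and MXD3 (0.44 ± 0.11) rose and MXI1 fell by 0.24 ± 0.07. Of 28 MYC target genes 27 were tested in each line. In A375 2 rose and 3 fell, with FBL, a nucleolar methyltransferase gene (0.48 ± 0.06), and PPAT, of purine synthesis (0.23 ± 0.07), among the first and ODC1, of polyamine synthesis (-1.24 ± 0.17), and RRP12 (-0.39 ± 0.05) among the second. In CHL1 TERT rose by 0.57 ± 0.12 and 9 fell, ODC1 (-0.58 ± 0.06) and the nucleolar GNL3 (-0.50 ± 0.05) by the most, where 12.1% of all genes fell. Median log2 fold changes of the targets were -0.02 in A375 and -0.08 in CHL1. ODC1 stood at 38.9 ± 3.43 CPM in resistant and 91.7 ± 24.2 in parental A375 cells, and at 435 ± 6.43 in resistant and 649 ± 53.3 in parental CHL1 cells (SD, n = 3). The MYC transcript itself passed in neither line in the main fits, and in CHL1 it passed with the replicate block.

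Among the marker lists, melanocyte lineage genes gave 1 higher and 1 lower of 8 tested in A375, TYRP1 (3.02 ± 0.29) and MITF (-0.48 ± 0.15), and 1 higher and 2 lower of 10 in CHL1, S100B (0.68 ± 0.05), DCT (-1.22 ± 0.07) and MITF (-0.38 ± 0.07). Fibroblast markers gave 2 higher and 1 lower of 5 in A375, COL3A1 (2.06 ± 0.39), LUM (1.58 ± 0.20) and PDGFRB (-1.16 ± 0.25), and 1 lower of 3 in CHL1, LUM (-1.01 ± 0.14). Keratinocyte markers gave 2 lower of 3 in A375, KRT5 (-5.91 ± 0.83) and KRT14 (-2.35 ± 0.16). In CHL1 they gave 1 higher and 1 lower of 2, KRT14 (1.07 ± 0.24) and KRT10 (-0.35 ± 0.09). Of the leukocyte markers LYZ was lower in A375 (-1.32 ± 0.17), the only one tested there, and none of 2 passed in CHL1. No endothelial marker passed, of 2 tested in A375 and 1 in CHL1.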

How the data were processed

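RNA of 12 libraries, 3 in each of 4 groups, was made into libraries that keep no record of strand. The deposited values are raw gene counts in 2 tables, 1 per line. Per the submitters' processing notes, limma, HTSeq 0.5, TopHat2, cutadapt 1.7 and CASAVA 1.8.2 were used. Which genome build and annotation the reads were counted on is not given in the sources used here. Totals were 25398920 to 29812686 counts per library, so a gene with no read lies below 0.101 to 0.118 CPM (3 counts), which covers counting error only.

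Within each line, resistant and parental cells were compared with edgeR 4.0.16 in R 4.3.3 (TMM factors, filterByExpr with a minimum count of 10, quasi-likelihood F test), and p-values were adjusted by Benjamini-Hochberg over all genes tested, with a threshold of 0.05. Interaction and line comparisons came from 1 fit over the 12 libraries and the 29735 genes listed in both tables. Every adjusted p in the text is from these fits unless another tool is named. Printed CPM are scaled by TMM factors over the 12 libraries, and CPM per kb divides them by exon lengths of GENCODE 29. Neighbours are the 10 nearest tested protein-coding genes on each side with at least 1 CPM. Promoter sequences are RefSeq's on GRCh38.p14, and windows of 8 of the 10 genes were searched, without FOSL1 and MYC.

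The members and the 12 other gene lists were chosen with earlier results of these data known. From each other list and line, the 2 called genes with the highest positive and the 2 with the lowest negative log2 fold change are named, along with the 3 genes most like each member among genes of at least 5 CPM with a pseudocount of 1 CPM. NAB2, KLF10, IER3 and CCN2 in CHL1 were named after their values were seen. BOP1, PECAM1 and KRT1 matched no row and were not analysed here, and 1 gene that the naming rule picks is not reported here. Alternatives were RLE factors, library totals alone, DESeq2 1.42.0, no low-count filter, a 1 CPM filter, the replicate number as a block, the 12-library fit (for the interaction and the line comparisons, both tables together with absent genes at 0) and leaving out each library. Leaving out all libraries of 1 number, and the test of the library number within each line, were added after seeing the data. The fitting scripts were tested on simulated data.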

Additional observations from a re-analysis of the deposited data

Results flagged for a closer look

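The interaction term of the edgeR fit tests whether the response to resistance differed between the lines. None of the 10 factors passed it in the fit over all libraries, beside 23.6% of all genes. Of the 49 genes that the naming rule picked from the other lists, 26 passed. Those 49 had been picked for a large called change in 1 line, so their share is not set against that of all genes. Values are the log2 fold change of resistant over parental cells in A375 minus that in CHL1. Among the AP-1 targets, MMP2 stood at -1.68 and MMP9 at 7.3, the second with no more than 1 read in any CHL1 library. Upstream kinases gave -2.41 for RPS6KA2, -0.81 for MAP2K2, -0.26 for RPS6KA1, 0.49 for RPS6KA3 and 0.64 for GSK3B. The MYC partners MXD1 and MYCN stood at 0.53 and -3.3. MYCN had too few reads in A375 to pass the low-count filter there. MYC targets gave 0.64 for FBL, 0.36 for GNL3, 0.28 for PPAT, -0.66 for ODC1 and -0.43 for RRP12. Of the leucine zipper and immediate-early genes, BATF2 stood at -2.73, BTG2 at 0.64, KLF10 at 0.94, KLF4 at -0.56 and NR4A3 at 0.84. BATF2 had no more than 7 reads in any CHL1 library. The cell type markers gave 2.58 for LUM, -1.39 for PDGFRB, 0.41 for KRT10, -3.43 for KRT14, 3.34 for DCT, -1.25 for S100B and 2.96 for TYRP1. DCT, like MYCN, did not pass the low-count filter in A375. Groups of 3 libraries are too small for a test of single outlying libraries.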

How the results depend on the processing

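Over 7 other settings of the tool, scaling, filter and samples, no factor changed direction in any comparison where it was tested, and all calls between the lines held. FOSB in CHL1 did not pass the 1 CPM filter and was tested in 6 of these settings. In CHL1 the factors called numbered 5 with no low-count filter, 5 with the replicate block and 1 in the 12-library fit, against 2. Without the filter EGR1 had an adjusted p of 1.80e-08, in an edgeR fit where no gene kept its own estimate of the spread. Replicate numbers are shared by the groups, and same-numbered libraries deviated together in part. Their correlations were 0.342, 0.344 and -0.016 in A375 and 0.203, 0.002 and 0.064 in CHL1. Crossed numbers 1 and 2 in A375 gave -0.295 and -0.401. The labels state no pairing, and the main fits left the number out. In CHL1 EGR1, MYC and FOS passed the test of the library number, so the main fit counted that shared difference as spread. That FOSL1, EGR1 and MYC did not pass in CHL1 therefore depends on leaving the number out. With the replicate block JUND (adjusted p = 0.0437) was added in A375, for 5 factors called, and FOSL1 (0.20, adjusted p = 0.0187), EGR1 (-0.48, adjusted p = 0.0233) and MYC (-0.24, adjusted p = 0.0149) in CHL1. Without 1 library, the factors called ran from 1 to 4 in A375, from 1 to 4 in CHL1 and from 0 to 1 for the interaction. Without 1 number of every group they ran from 0 to 3, from 1 to 2 and from 0 to 1 in the same order; FOSL2 in A375 then lost its call without number 1 (adjusted p = 0.0865) or number 2 (adjusted p = 0.0892). All genes called fell by over 1.5 times without number 1 (3161) or 3 (2854) in A375, number 2 (2021) or 3 (2108) in CHL1, and number 1 (2985) or 3 (2468) for the interaction. Without 1 library, directions turned for ATF3 in A375 (-0.046 to 0.504), for FOS (-0.522 to 0.1), ATF3 (-0.103 to 0.465), EGR1 (-1.537 to 0.26) and JUN (-0.015 to 0.29) in CHL1, and for JUN (-0.085 to 0.293), ATF3 (-0.296 to 0.444), MYC (-0.091 to 0.287) and JUND (-0.048 to 0.116) in the interaction. Without 1 number of every group they turned for FOS (-0.284 to 0.113) and ATF3 (-0.109 to 0.366) in CHL1, for JUN (-0.045 to 0.398), ATF3 (-0.171 to 0.215) and MYC (-0.09 to 0.256) in the interaction, and for ATF3 between the parental lines (-0.057 to 0.998). None of these had passed its test; the cause was not tested. Fewer libraries leave fewer degrees of freedom.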

Other observations

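Besides ATF3, 4 of the 25 genes that spanned at least 2-fold in both A375 groups were lowest in library 1 of both. HMOX1, the heme oxygenase gene of the oxidative stress response, had 20.6, 46.2 and 36.5 CPM in resistant and 20.3, 48.9 and 41.7 CPM in parental A375 libraries. CYP1A1, a target of the aryl hydrocarbon receptor, had 11.7, 31.6 and 21.7 CPM in resistant and 6.72, 19.8 and 9.42 CPM in parental libraries. ANKRD1, a target of YAP, had 9.28, 21.9 and 12.8 CPM in resistant and 20.4, 44.9 and 36 CPM in parental libraries. ANGPTL4, a lipoprotein lipase inhibitor gene, had 2.90, 6.45 and 9.22 CPM in resistant and 5.74, 10.5 and 11.8 CPM in parental libraries. In the edgeR test of the library number in A375, the adjusted p was 0.00276 for HMOX1, 0.0076 for CYP1A1, 0.0103 for ANKRD1 and 0.024 for ANGPTL4. These genes were picked by their spread after the values were seen, so these p-values are a description.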
